A study of Mus musculus with 2 samples.

Results

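The genes described here are 36 interferon-stimulated genes and interferon regulatory factors (IRFs) among the 55471 genes of an RNA-Seq table of sorted Pdpn+ kidney cells. They were chosen by gene symbol from a list of the family, with earlier results of these data known. They fall into 4 roles: 18 antiviral effectors and regulators, 7 guanylate-binding proteins (GBPs), 8 transcription factors and 3 genes of the PARP and DTX3L group. Of the 36 genes, 33 reached at least 20 counts in at least 1 library and are called measured below. *Mx1*, *Gbp4* and *Gbp5* did not.

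The study asked how kidney cells positive for podoplanin (Pdpn), a surface glycoprotein of lymphatic endothelium, differ when the neighbouring tubule cells lack *Vhlh*, the mouse gene of the von Hippel-Lindau tumour suppressor. EpCAM- CD45- Nephrin- Pdpn+ cells were sorted from kidneys of male C57BL/6J mice, pooled within each genotype, kept in endothelial medium for several hours and sequenced as 1 poly(A)-selected library per genotype. VhlhKO mice were Hoxb7-Cre-GFP/+ and Vhlh loxP/loxP, so that the Hoxb7 promoter drove Cre in tubule epithelium, and the sorted cells were meant to be other cells than those carrying the deletion. Ctrl mice were Hoxb7-Cre-GFP/+ in the genotype label and in the study's methods, whereas another label of the Ctrl sample gives Vhlh loxP/loxP with no Cre. The stated age is 12 weeks in the sample labels, 8 to 12 weeks in the protocol and 10 to 12 weeks in the design text. The stated pool is 6 mice per genotype in the labels and 3 mice in the RNA-Seq methods, and the labels describe selection for podoplanin alone.

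Total counts were 34465017 for VhlhKO and 31817115 for Ctrl. Neither genotype has a replicate library, so nothing could be tested and every ratio below compares these libraries and not the genotypes. *Vhl*, the symbol under which the table lists *Vhlh*, had 975 counts in VhlhKO against 938 in Ctrl, which is no check of the genotype because the sorted cells were meant to exclude the recombined tubule cells. The lymphatic label was borne out only in part: *Pdpn* had 2313 counts in VhlhKO and 1836 in Ctrl, *Prox1*, the lymphatic master regulator, had 142 in VhlhKO and 144 in Ctrl, and *Lyve1*, a hyaluronan receptor of lymphatic vessels, had 128 in VhlhKO and 10 in Ctrl, and *Flt4*, which encodes VEGFR3, had 898 in VhlhKO and 710 in Ctrl, while *Ccl21a* and *Mmrn1* were at 0 in both. Marker lists of other cell types had far more counts. Summed, 10 fibroblast and pericyte markers had 133452 counts in VhlhKO and 96454 in Ctrl, most of them from *Acta2* (72718 in VhlhKO, 69178 in Ctrl). The sum of 6 podocyte markers was 25841 in VhlhKO and 16041 in Ctrl. Against these, 7 lymphatic markers had 3495 in VhlhKO and 2707 in Ctrl, and 8 blood endothelial markers had 1507 in VhlhKO and 1104 in Ctrl. The cells are therefore called sorted Pdpn+ cells.

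Type I interferons bind the receptor of IFNAR1 and IFNAR2, and the kinases JAK1 and TYK2 then switch on the complex ISGF3, of which STAT2 and IRF9 are subunits. This complex binds the interferon-stimulated response element (ISRE) in promoters of antiviral genes. Interferon-γ acts through the gamma-activated site (GAS), with *Irf1* and the GBP genes among the best known targets, and many of the genes answer to both signals.

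Promoters of the members are shown first, since the ISRE is the element they are known for. RefSeq promoter windows on GRCm38.p6, running from 250 bases before to 50 bases after the start, were matched for 27 of the 36 members. *Usp18*, *Oas2*, *Parp9*, *Parp14*, *Gbp4*, *Gbp6*, *Gbp9*, *Ifi27* and *Mx1* had no entry. The ISRE core was searched on both strands as GAAA, any 2 bases, GAAA. It was present in 15 of the 27 members (55.6%), against 1079 of 27025 genes in the whole promoter table (3.99%). The GAS, searched as TTC, any 3 bases, GAA, was present in 9 of the 27 members (33.3%), against 2582 of the 27025 genes (9.55%). A match is a description of letters and not evidence of binding. A missing match does not show that a gene lacks an ISRE, since other letters and sequence outside the window were not searched.

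The windows below were chosen because their genes span the range of ratios given later, with the *Ifit* genes at the top and *Stat2* near the bottom. They are written 5′ to 3′ on the strand of the gene, and the capitals mark ISRE cores, read as GAAA or, on the other strand, as TTTC. Overlapping cores are drawn as 1 run of capitals.
Ifit3: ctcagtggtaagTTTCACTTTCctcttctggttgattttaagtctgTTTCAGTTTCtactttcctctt
Ifit3b: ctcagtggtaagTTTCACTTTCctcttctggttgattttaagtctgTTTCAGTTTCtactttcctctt
Ifit1: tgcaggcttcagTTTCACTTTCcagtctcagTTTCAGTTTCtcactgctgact
Gbp3: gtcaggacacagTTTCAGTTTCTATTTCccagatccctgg
Gbp2: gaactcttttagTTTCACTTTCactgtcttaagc
Oas1a: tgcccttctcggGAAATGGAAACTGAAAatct
Isg15: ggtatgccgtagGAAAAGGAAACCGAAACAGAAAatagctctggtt
Bst2: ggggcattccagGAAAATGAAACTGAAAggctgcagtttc
Stat2: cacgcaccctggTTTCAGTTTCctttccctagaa

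On the plus strand, the *Ifit3* window is chr19:34583361-34583428, *Ifit3b* is chr19:34607757-34607824, *Ifit1* is chr19:34640773-34640825, *Gbp3* is chr3:142559987-142560026, *Gbp2* is chr3:142620592-142620625 and *Stat2* is chr10:128270264-128270297. On the minus strand, the *Oas1a* window is chr5:120907526-120907557, *Isg15* is chr4:156200863-156200908 and *Bst2* is chr8:71537575-71537614. The 68 bases of *Ifit3* and *Ifit3b* are the same letter for letter, and over the whole 300-base windows these genes matched in 75.9% of alignment columns. *Ifit1* carries the same pair of cores, closer together, in a window that matched that of *Ifit3* in 50.3% of columns. *Isg15* has 3 overlapping cores in a row, the most of any member. *Stat2* has a single core more than 200 bases before its start, and *Ifih1* has its core after the start, at bases 33 to 42.

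**Figure D1:**
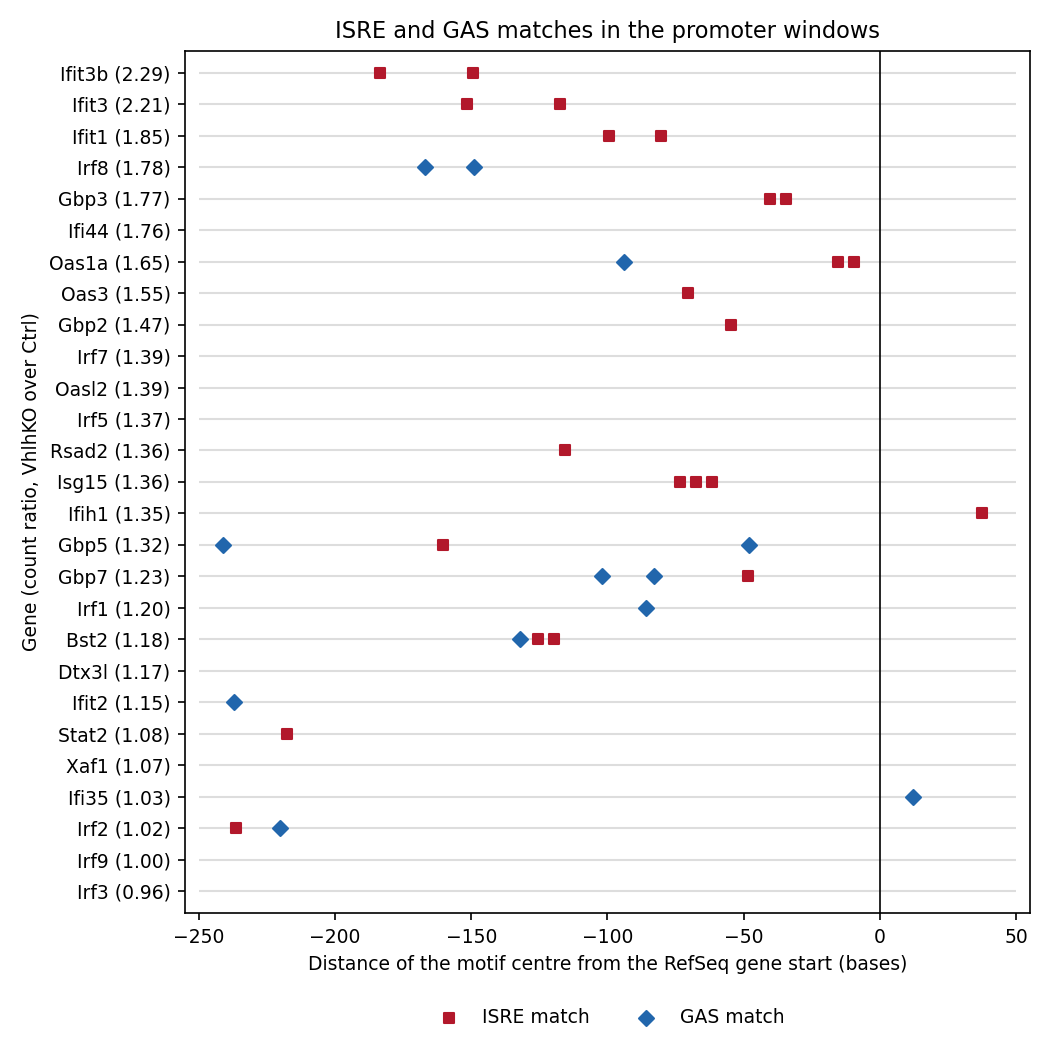
Centres of ISRE matches (squares) and GAS matches (diamonds) in the promoter windows of 27 members, in bases from the RefSeq start (0), with genes ordered by their count ratio of VhlhKO over Ctrl (in parentheses). Most ISRE matches lie before the start, and that of *Ifih1* lies after it, at bases 33 to 42.

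The members as a group were higher in the VhlhKO library. Counts scaled by TMM and by library size are given as CPM, and log2 ratios set VhlhKO over Ctrl with 0.5 CPM added to each side. Ratios given with an interval are plain scaled ratios, and the interval is the exact 95% binomial one, which covers counting error only. The median log2 ratio was 0.40 over the 33 measured members, with a range of -0.06 to 1.15, against -0.00065 over the 15275 measured genes. It was above 0 for 30 of the 33, against 49.8% of all measured genes.

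By the size rules, 2 members stood at least 2-fold higher in the VhlhKO library (1.71% of all measured genes were) and 0 stood at least 2-fold lower (0.524%). At 1.5-fold, 7 were higher (4.75%) and 0 were lower (1.82%). The counting interval lay above 1 for 23 members (19.0%) and below 1 for 0 (17.3%). Well-counted genes leave 1 out of this interval at smaller differences, so the same share was taken among genes with at least 500 counts, where it was 18 of 24 members and 22.1% of 8840 genes. Summed over the 36 members, VhlhKO had 34214 counts and Ctrl 26346, a ratio of 1.21 (1.19 to 1.23). In bulk RNA, more cells that express a gene and more RNA per cell cannot be told apart.

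**Figure D2:**
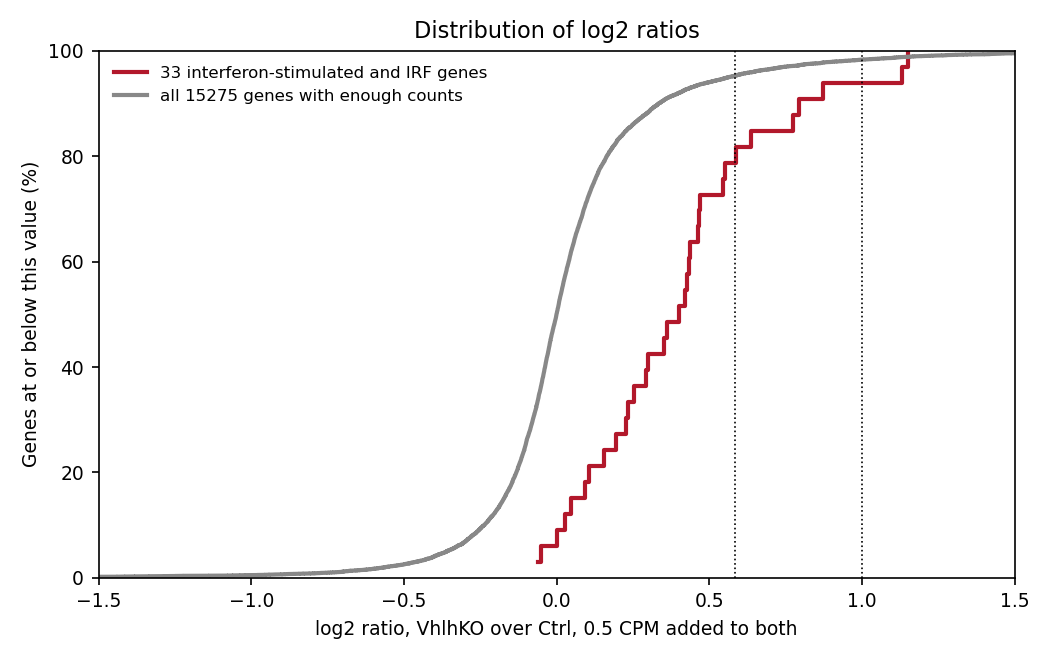
Cumulative share (%) of the 33 measured members (red) and the 15275 measured genes (grey) at or below each log2 ratio of VhlhKO over Ctrl with 0.5 CPM added; dotted lines mark 1.5-fold and 2-fold. The members' median is 0.40 and that of all genes is -0.00065.

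**Figure D3:**
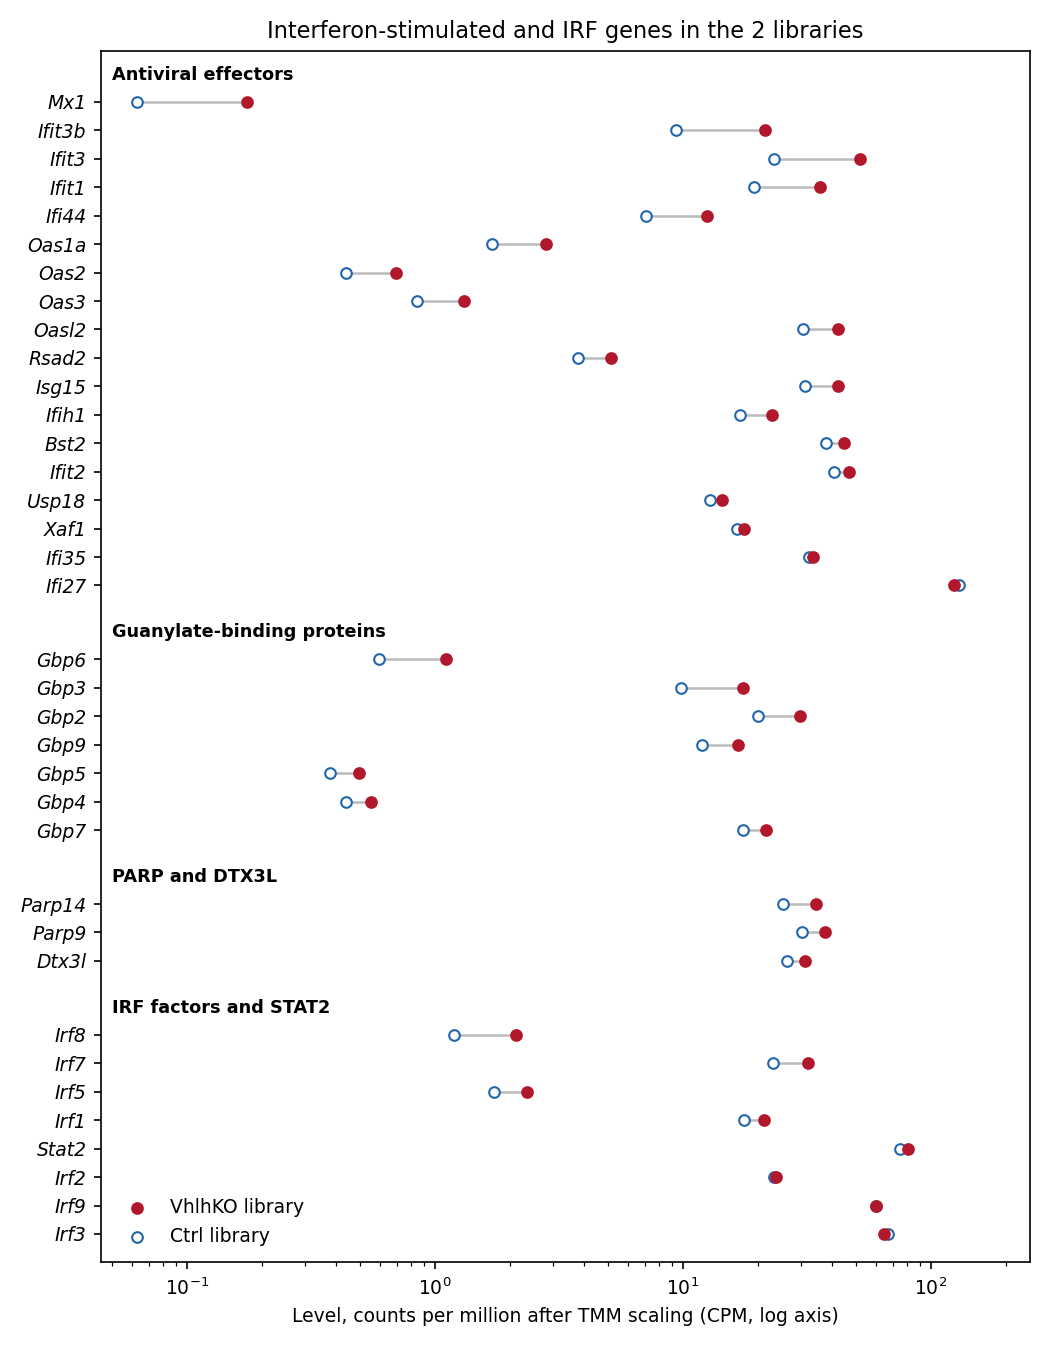
Level of each member in CPM on a log axis, in VhlhKO and Ctrl, 1 library each, grouped by role. *Ifi27* is the highest member in both libraries and *Mx1* the lowest.

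The IFIT proteins bind viral RNA and block its translation. Their 4 genes lie within 99.3 kb of chromosome 19, in the order *Ifit2*, *Ifit3*, *Ifit3b*, *Ifit1*, from 34550694 to 34650009 on GRCm38 (GENCODE M21), and *Ifit3b*, *Ifit3* and *Ifit1* had the highest log2 ratios among the measured members. *Ifit3b* had 736 counts in VhlhKO against 299 in Ctrl, or 21.4 CPM in VhlhKO against 9.37 CPM in Ctrl, a ratio of 2.29 (2.00 to 2.62). *Ifit3*, whose human counterpart stabilises IFIT1, had 1776 counts in VhlhKO against 745 in Ctrl, or 51.7 CPM in VhlhKO against 23.3 CPM in Ctrl, a ratio of 2.21 (2.03 to 2.42). These are the members past 2-fold. *Ifit1*, which recognises RNA caps that lack 2′-O methylation, had 1229 counts in VhlhKO against 617 in Ctrl, a ratio of 1.85 (1.68 to 2.04). *Ifit2*, at the other end of the cluster, had 1601 counts in VhlhKO against 1298 in Ctrl, a ratio of only 1.15 (1.06 to 1.23), and no ISRE core was found in its window. Of the transcript sequence of *Ifit3*, 31.7% of 100-base stretches also occur in *Ifit3b*, and how reads that fit both were handled is not stated, so the split between them is uncertain. Summed, the 4 genes had 5342 counts in VhlhKO against 2959 in Ctrl, a ratio of 1.68 (1.6 to 1.76).

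*Isg15* encodes a ubiquitin-like protein that is joined to other proteins after interferon exposure, and it was the second most abundant member per length in both libraries. It had 1453 counts in VhlhKO against 994 in Ctrl, with 215 TPM in VhlhKO against 159 TPM in Ctrl (a transcript abundance that divides by gene length) in the authors' table, and the count ratio was 1.36 (1.25 to 1.47). *Usp18*, the protease that removes ISG15 and dampens type I receptor signalling, had 494 counts in VhlhKO against 411 in Ctrl, a ratio of 1.12 whose interval (0.978 to 1.28) includes 1.

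The oligoadenylate synthetases make 2′-5′ oligoadenylates that activate RNase L, and *Oasl2* is a relative. *Oasl2* had 1452 counts in VhlhKO against 974 in Ctrl, a ratio of 1.39 (1.28 to 1.5). *Oas1a* had 96 counts in VhlhKO against 54 in Ctrl, a ratio of 1.65 (1.17 to 2.35) that passed the 1.5-fold rule. It shares 40.9% of its 100-base stretches with *Oas1g*, so its count is also uncertain. *Oas2* with 24 counts in VhlhKO against 14 in Ctrl and *Oas3* with 45 in VhlhKO against 27 in Ctrl lie beside *Oas1a* on chromosome 5 (120730333 to 120907521), and their intervals include 1. All 4 genes thus had more counts in VhlhKO, but only *Oasl2* was well counted.

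Among the remaining measured effectors, *Ifi44* on chromosome 3, a gene of the type I response whose protein's action is less clear, had the highest ratio. It had 430 counts in VhlhKO against 227 in Ctrl, a ratio of 1.76 (1.5 to 2.08), and its promoter window holds no ISRE core. *Ifih1* encodes MDA5, the cytoplasmic sensor of long double-stranded RNA, and had 784 counts in VhlhKO against 541 in Ctrl, a ratio of 1.35 (1.21 to 1.51). *Rsad2* encodes viperin, an enzyme that makes a chain-terminating nucleotide, and had 176 counts in VhlhKO against 120 in Ctrl, a ratio of 1.36 (1.07 to 1.73). *Bst2* encodes tetherin, which holds budding virus at the cell surface. It had 1524 counts in VhlhKO against 1201 in Ctrl, a ratio of 1.18 (1.09 to 1.27), and 176 TPM in VhlhKO against 150 TPM in Ctrl.

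The most abundant member per length was among the few that were not higher in VhlhKO. *Ifi27*, which encodes a small membrane protein of mitochondria and the nuclear envelope, had 4252 counts in VhlhKO against 4120 in Ctrl, with 302 TPM in VhlhKO against 316 TPM in Ctrl, and the count ratio was 0.959 (0.918 to 1.00). *Ifi35*, which pairs with the NMI protein, had 1143 counts in VhlhKO against 1028 in Ctrl, a ratio of 1.03 (0.949 to 1.12), and exons of *Gm11626* on the opposite strand cover 16.8% of its own. *Xaf1*, whose human counterpart is a pro-apoptotic partner of XIAP, had 607 counts in VhlhKO against 528 in Ctrl, and its interval includes 1. *Mx1*, a dynamin-like antiviral GTPase, had 6 counts in VhlhKO against 2 in Ctrl, too few to read, and the inbred strain C57BL/6 is known for a defective copy of this gene. Of the 17 measured effectors, 11 had an interval above 1 (19.0% of all measured genes did) and 5 passed 1.5-fold towards VhlhKO (4.75%). Their median log2 ratio was 0.42.

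**Figure D4:**
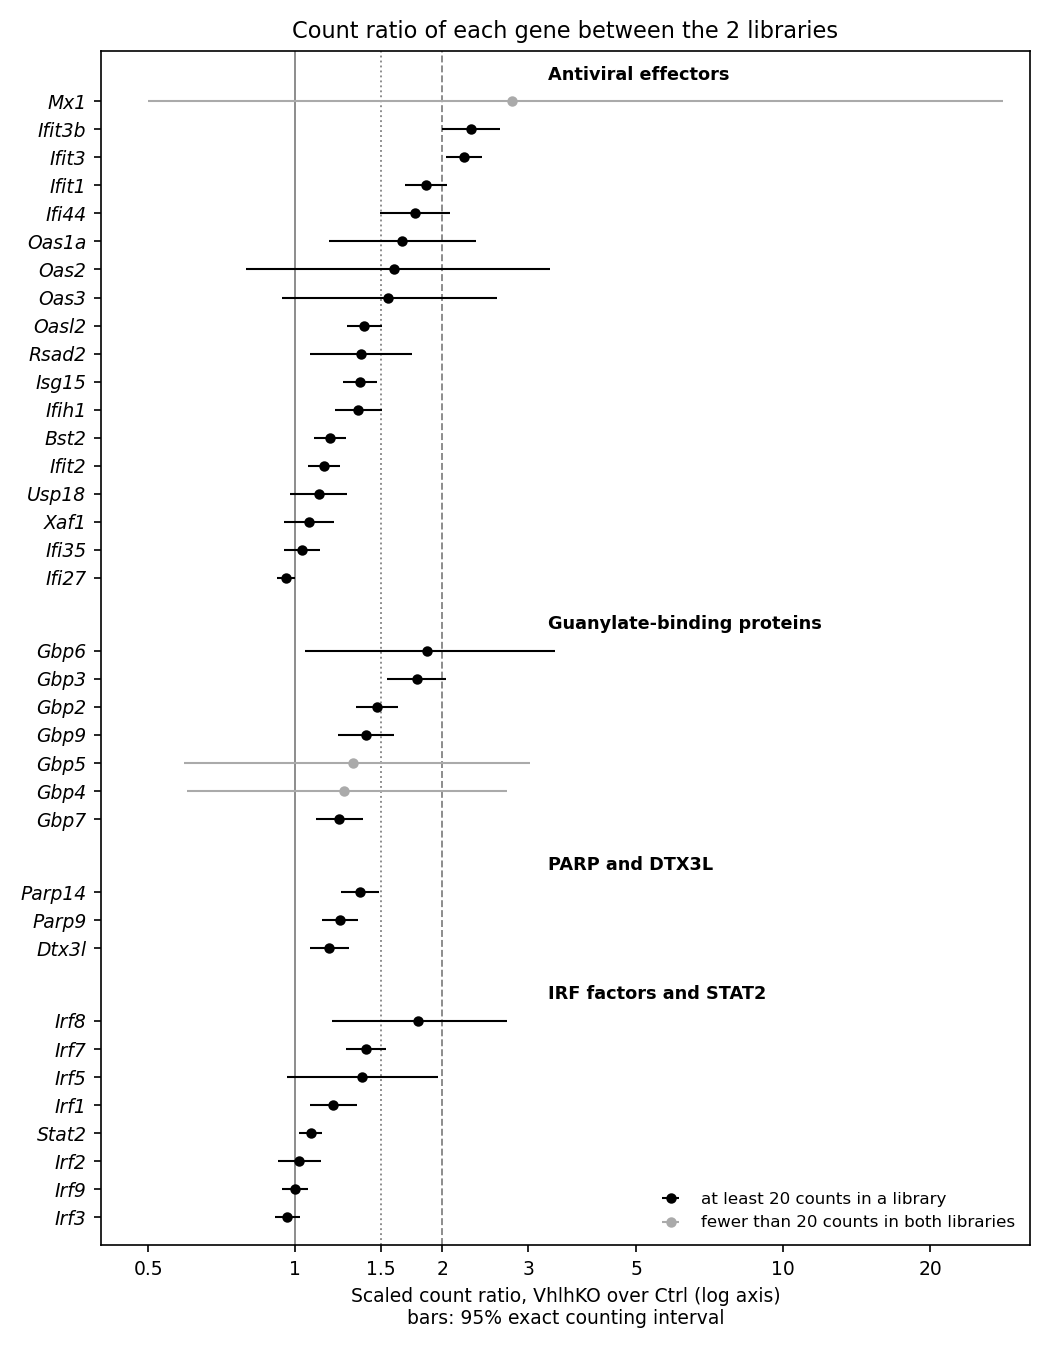
Ratio of VhlhKO over Ctrl for each member, with its exact 95% counting interval, on a log axis, with lines at 1, 1.5 and 2. *Ifit3b* and *Ifit3* lie past 2-fold, *Mx1*, *Gbp4* and *Gbp5* in grey had too few counts, and *Irf9*, *Irf3* and *Ifi27* lie at or just under 1.

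The GBPs are large GTPases that coat intracellular pathogens and the vacuoles that hold them. *Gbp3* had 599 counts in VhlhKO against 314 in Ctrl, a ratio of 1.77 (1.54 to 2.04), and was the 1 GBP past 1.5-fold. *Gbp2* had 1016 counts in VhlhKO against 642 in Ctrl, a ratio of 1.47 (1.33 to 1.63). *Gbp7* had 741 counts in VhlhKO against 559 in Ctrl, a ratio of 1.23 (1.10 to 1.38). These genes sit together with *Gbp5*, at 17 counts in VhlhKO against 12 in Ctrl, in 144 kb of chromosome 3 (142493978 to 142638008), and an ISRE core is present in the window of each. The gene model *Gm43802* overlaps 11.3% of the exon bases of *Gbp7* on the same strand. The window of *Gbp7* also holds GAS letters, as does that of *Gbp5*.

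On chromosome 5 (105077630 to 105293698), *Gbp9* had 571 counts in VhlhKO against 380 in Ctrl, a ratio of 1.40 (1.22 to 1.59). *Gbp6* had 38 counts in VhlhKO against 19 in Ctrl, a ratio of 1.86 (1.05 to 3.41), but its log2 ratio of 0.55 with 0.5 CPM added left it just outside the 1.5-fold rule. The gene model *Gm43302* overlaps *Gbp6* on the same strand and shares much of its sequence (64.5% of its 100-base stretches occur in other genes). *Gbp4* had 19 counts in VhlhKO against 14 in Ctrl. All 5 measured GBPs had an interval above 1, against 19.0% of all measured genes. The 7 genes together had 3001 counts in VhlhKO against 1940 in Ctrl, a ratio of 1.44 (1.36 to 1.52). Among the 4 roles this was the highest ratio of summed counts, although the *Ifit* genes alone were higher.

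The transcription factors differed less. *Irf7*, which amplifies the type I response and is itself an interferon target, had 1100 counts in VhlhKO against 733 in Ctrl, a ratio of 1.39 (1.27 to 1.53). *Irf1*, an early target of interferon-γ with a GAS match 90 to 82 bases before its start, had 726 counts in VhlhKO against 564 in Ctrl, a ratio of 1.2 (1.07 to 1.34). *Stat2*, the subunit that carries the activation domain of ISGF3, had 2775 counts in VhlhKO against 2397 in Ctrl, a ratio of 1.08 (1.02 to 1.14). The next 3 factors had ratios near 1, with intervals that include it. *Irf9*, the DNA-binding subunit of ISGF3, had 2068 counts in VhlhKO against 1922 in Ctrl, or 60.2 CPM in each (ratio 1.00, 0.939 to 1.06). *Irf3*, which RNA and DNA sensors activate by phosphorylation rather than by transcription, had 2223 counts in VhlhKO against 2143 in Ctrl (0.964, 0.908 to 1.02). *Irf2*, a repressor of interferon genes, had 812 counts in VhlhKO against 740 in Ctrl (1.02, 0.922 to 1.13).

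*Irf8* and *Irf5* are IRFs that myeloid cells express strongly, and both were scarce. *Irf8* had 73 counts in VhlhKO against 38 in Ctrl, a ratio of 1.78 (1.19 to 2.72) that passed 1.5-fold. *Irf5* had 81 counts in VhlhKO against 55 in Ctrl, and its interval (0.960 to 1.96) includes 1. Exons of *Tnpo3* on the opposite strand cover 14.1% of those of *Irf5*. The summed counts of the 8 transcription factors gave a ratio of 1.07 (1.04 to 1.10).

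PARP9 and DTX3L form a complex that joins ADP-ribosylation to ubiquitination, and PARP14 is a related ADP-ribosyltransferase. Their genes lie in 140 kb of chromosome 16 (35832874 to 35972605). *Parp14* had 1180 counts in VhlhKO against 807 in Ctrl, a ratio of 1.36 (1.24 to 1.49). *Parp9* had 1285 counts in VhlhKO against 967 in Ctrl, a ratio of 1.23 (1.13 to 1.34). *Dtx3l* had 1062 counts in VhlhKO against 840 in Ctrl, a ratio of 1.17 (1.07 to 1.29). *Dtx3l* and *Parp9* overlap on opposite strands by 458 exon bases, and whether counting used strand is not stated. The 3 genes were thus all modestly higher in VhlhKO.

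Ratios of members with and without an ISRE core overlapped. The 14 measured members with a core in the window had a median log2 ratio of 0.43 (0.03 to 1.15). Of them, 5 passed 1.5-fold towards VhlhKO (4.75% of all measured genes did). The 12 with no core found in the window had a median of 0.24 (-0.05 to 0.77), and 2 of them, *Ifi44* and *Irf8*, passed 1.5-fold. *Irf2* and *Stat2* carry a core and had log2 ratios of 0.03 and 0.10, while *Ifit3b*, *Ifit3* and *Ifit1*, with 2 cores each, had 1.15, 1.13 and 0.87. As many or more cores also stood before members with smaller ratios: *Bst2* with 2 had 0.23, *Oas1a* with 2 had 0.59 and *Isg15* with 3 had 0.44.

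Upstream of the members, no interferon gene was measured. Of 21 ligand genes, 18 were at 0 in both libraries, and *Ifnz* had 1 count in VhlhKO against 5 in Ctrl, *Ifnab* had 1 in each, and *Ifna2* had 1 in VhlhKO and 0 in Ctrl. All 6 receptor genes were measured, with 0 past 2-fold and a median log2 ratio of 0.05. Their intervals lay above 1 for 2 genes and below 1 for 1, against 19.0% and 17.3% of all measured genes. *Ifnar1*, of the type I receptor, had 3462 counts in VhlhKO against 3166 in Ctrl, a ratio of 1.02 (0.968 to 1.07), and *Ifnar2* had 728 in VhlhKO against 652 in Ctrl. *Ifngr1*, of the interferon-γ receptor, had 4737 counts in VhlhKO against 4249 in Ctrl, a ratio of 1.04 (0.994 to 1.08). Its partner *Ifngr2* was lower, with 4606 counts in VhlhKO against 4697 in Ctrl, a ratio of 0.911 (0.875 to 0.949). *Ifnlr1*, which makes the interferon-λ receptor with *Il10rb*, had 183 counts in VhlhKO against 92 in Ctrl, a ratio of 1.85 (1.43 to 2.40), and *Il10rb* had 1106 in VhlhKO against 906 in Ctrl.

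Of 11 JAK, STAT and feedback genes, 0 passed 2-fold in either direction, and the median log2 ratio was 0.06. Their intervals lay above 1 for 5 genes and below 1 for 0, against 19.0% and 17.3% of all measured genes. Of the feedback inhibitors, *Socs3* had 993 counts in VhlhKO against 714 in Ctrl, a ratio of 1.29 (1.17 to 1.42), and *Socs1* had 90 in VhlhKO against 101 in Ctrl, a ratio of 0.828 (0.616 to 1.11). Of 14 measured genes of nucleic acid sensing, 1 passed 2-fold towards VhlhKO, against 1.71% of all measured genes. It was *Tlr7*, the endosomal receptor for single-stranded RNA, with 58 counts in VhlhKO against 15 in Ctrl. *Zbp1*, a sensor of Z-form nucleic acid, had 28 counts in VhlhKO against 7 in Ctrl, a plain ratio of 3.72 (1.59 to 10.1). With 0.5 CPM added, its log2 ratio of 0.87 left it outside the 2-fold rule. *Tmem173*, which encodes STING, had 624 counts in VhlhKO against 390 in Ctrl, a ratio of 1.49 (1.31 to 1.69). Over the sensing genes, the log2 ratio had a median of 0.15, and 8 of the 14 intervals lay above 1 and 0 below.

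Interferon-stimulated genes outside the 36 were listed as well. Of 42 measured, 4 stood at least 2-fold higher in the VhlhKO library (1.71% of all measured genes did) and 0 lower (0.524%). At 1.5-fold, 8 were higher (4.75%), while 30 intervals lay above 1 (19.0%) and 1 below (17.3%). The median log2 ratio was 0.20. The genes past 2-fold were *Ifi203* (83 counts in VhlhKO, 24 in Ctrl) and *Ifi205* (182 in VhlhKO, 73 in Ctrl), both of the DNA-binding PYHIN family, *Trim30a* (494 in VhlhKO, 199 in Ctrl), a TRIM-family regulator of signalling, and *Lgals9* (1053 in VhlhKO, 412 in Ctrl), which encodes galectin-9. The interval below 1 was that of *Slfn9* (1446 counts in VhlhKO against 1476 in Ctrl, ratio 0.910), a gene named after its values were seen. Among 8 measured GBPs and immunity-related GTPases outside the list, 0 passed 2-fold and 4 passed 1.5-fold towards VhlhKO (4.75% of all measured genes did). Their median was 0.54. Those farthest from 0 were *Tgtp2* (238 counts in VhlhKO against 103 in Ctrl), *Gbp8* (25 in VhlhKO, 4 in Ctrl) and *Gvin1* (1099 in VhlhKO, 621 in Ctrl). The plain ratios of *Tgtp2* (2.15, 1.70 to 2.73) and *Gbp8* (5.81, 2.01 to 23.0) were past 2-fold. With 0.5 CPM added, their log2 ratios of 0.995 and 0.973 left them just outside the rule. Of 5 further IRF-family genes, *Irf4*, a lymphocyte and myeloid factor, was the farthest from 0, with 9 counts in VhlhKO against 20 in Ctrl. *Irf2bpl*, which encodes a partner-like protein of IRF2, had 5418 in VhlhKO against 4779 in Ctrl, and the median of the list was -0.03.

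**Figure D5:**
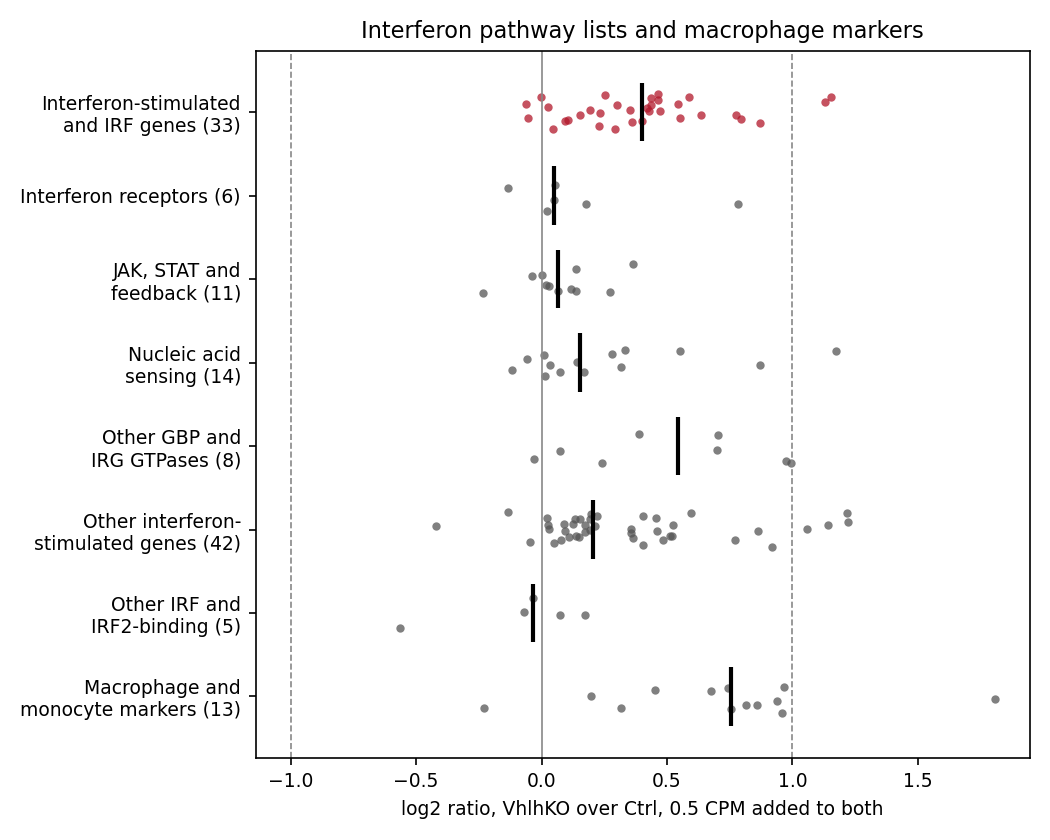
Log2 ratio (VhlhKO over Ctrl) of each measured gene (point) in the members, the pathway lists and the macrophage and monocyte markers, with each median as a thick line and 2-fold as dashed lines. The medians are 0.05 for the receptors, 0.15 for the sensing genes, 0.20 for the further interferon-stimulated genes and 0.54 for the further GBPs and GTPases.

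Markers of macrophages and monocytes also differed between the libraries, although the methods describe a gate against CD45. Of 16 such markers, 13 were measured, with a median of 0.75. Of these, 12 were above 0 on the log2 scale (49.8% of all measured genes were) and 9 passed 1.5-fold towards VhlhKO (4.75%). The summed level of the list was 118 CPM in VhlhKO against 55.8 CPM in Ctrl, a ratio of 2.12 (2.01 to 2.25). Single markers ranged over 0 to 58.4 CPM in VhlhKO against 0 to 16.4 CPM in Ctrl. *Lyz2* was the highest in both, so it alone made up 58.4 CPM of the sum in VhlhKO and 16.4 CPM in Ctrl. *Lyz2* (lysozyme) had 2007 counts in VhlhKO against 522 in Ctrl, *Ptprc*, which encodes CD45, had 24 in VhlhKO and 12 in Ctrl, *Csf1r*, the macrophage growth factor receptor, had 279 in VhlhKO and 307 in Ctrl, and *Ccr2* was at 0 in both. Leukocytes also express *Irf8* and *Irf5*, and the part of the markers in any member's ratio was not tested. Without *Irf5* and *Irf8* the median log2 ratio of the members was again 0.40. Leaving them out could not move it, since *Irf5* (0.36) lies below the median and *Irf8* (0.63) above it. Of 10 markers of T, NK and B cells, 6 were at 0 in both libraries and only *Lck* was measured, with 134 counts in VhlhKO against 113 in Ctrl. The list for fibroblasts and pericytes had 9 measured genes, with a median log2 ratio of 1.34. Of these, 5 passed 2-fold towards VhlhKO, against 1.71% of all measured genes. The summed level of the list was 3885 CPM in VhlhKO against 3022 CPM in Ctrl. The interval lay above 1 for 6 of the 9 genes and below 1 for 2, against 19.0% and 17.3% of all measured genes. Those below 1 were of *Acta2* (ratio 0.977, 0.967 to 0.987) and *Cspg4* (0.831, 0.806 to 0.857). *Acta2* made up 2117 CPM of the sum in VhlhKO and 2167 CPM in Ctrl. The proximal tubule list had 7 measured genes, of which 4 passed 2-fold towards Ctrl (0.524% of all measured genes did) and 1 towards VhlhKO (1.71%). The summed level of the list was 53.5 CPM in VhlhKO against 46.2 CPM in Ctrl. *Lrp2* made up 44.5 CPM of this sum in VhlhKO and 32.6 CPM in Ctrl. In TPM the sum ran the other way, at 14.4 in VhlhKO against 17.7 in Ctrl. All 6 measured blood endothelial markers were above 0 on the log2 scale, against 49.8% of all measured genes (summed level 43.9 CPM in VhlhKO against 34.6 CPM in Ctrl). Of their intervals 3 lay above 1, against 19.0% of all measured genes. *Kdr*, *Cdh5* and *Pecam1* had ratios of 1.01, 1.03 and 1.11 with intervals that include 1. Of 5 measured podocyte markers, 3 were above 0 (49.8% of all measured genes were) and 2 below, with *Podxl*, a surface sialomucin, past 2-fold. The summed level of the list was 752 CPM in VhlhKO against 503 CPM in Ctrl. *Synpo* made up 444 CPM of this sum in VhlhKO and 319 CPM in Ctrl. *Nphs1*, which encodes the Nephrin gated against, was lower, with 44 counts in VhlhKO against 77 in Ctrl, a ratio of 0.531 (0.358 to 0.779). *Epcam*, the epithelial marker used for depletion, had 155 counts in VhlhKO against 69 in Ctrl, a ratio of 2.09 (1.56 to 2.81). The part of these lists and of *Epcam* in the ratios was not tested either.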

How the data were processed

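Sorted EpCAM- CD45- Nephrin- Pdpn+ kidney cells were measured by RNA-Seq, with 1 pooled library each of VhlhKO and Ctrl. The submitters' processing notes list STAR, Subread, featureCounts, DESeq2, cutadapt, bcl2fastq, FastQC and MultiQC, and the builds mm10 and GRCm38. For tool settings, the annotation release, the use of strand and the handling of reads that fit several genes the entry is: not given in the sources used here. From the reads the authors made raw counts, the deposited unit on which the ratios rest. The authors' TPM values, scaled by gene length, are deposited beside them. Log2 fold changes and p-values of the authors were deposited in the same table and were not used.

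TMM scaling was done with edgeR 4.0.16 under R 4.3.3, with factors of 0.997 for VhlhKO and 1.003 for Ctrl. A minimum of 20 counts in at least 1 library left 15275 of 55471 genes. The 0.5 CPM added to each side equals 17.2 counts in VhlhKO and 16.0 in Ctrl. Intervals are exact conditional binomial (Clopper-Pearson, 95%), computed with scipy 1.17.1 under Python 3.11.15. Intervals cover counting error only, because each genotype has 1 library. They treat counts as independent, which PCR copies of a molecule are not. With 1 library per genotype no test was made. The scripts were tested on simulated data. Members and lists were chosen with earlier results of these data known.

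Every member is named with its counts. Ratios with intervals are given for members past 1.5-fold, members whose interval leaves out 1 and the 5 members highest by TPM, with a few more to show members near 1. Of each list, genes past 2-fold and the 3 measured genes farthest from 0 were to be named, along with the receptors and detected ligands (some genes are not reported here), and list genes beyond these were added after their values were seen. Gene positions and 100-base stretches of transcripts come from GENCODE M21 (GRCm38), and promoter windows from RefSeq (GRCm38.p6). A planned protein alignment of the families could not be made without a protein table, and shared transcript stretches stand in for it. The alternatives tried were DESeq2 (1.42.0) size factors, total counts, TPM, other added CPM values, other count minimums, and leaving out members that leukocytes express or that share sequence.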

Additional observations from a re-analysis of the deposited data

How the results depend on the processing

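The median log2 ratio of the members stayed above 0 under all alternatives run, between 0.21 (5 CPM added) and 0.44 (0.05 CPM added). The number of measured members above 0 was 30 by TMM and by total counts and 31 by DESeq2 size factors, which moved *Irf9* from -0.0004 to 0.01. With 5 CPM added, 1 member passed 2-fold and 4 passed 1.5-fold towards VhlhKO, since the added value compresses the ratios of low genes. With 0.05 CPM added, 10 passed 1.5-fold, among them *Gbp6*, *Oas2* and *Oas3*. Under scaling by total counts, 1 member, *Ifi27*, had an interval below 1. Of 324 values of single members under the alternatives, 3 moved by more than the half-width of their counting interval, all with 5 CPM added (*Ifit3* to 1.00, *Ifit3b* to 0.88 and *Ifi44* to 0.53). The sign change of *Irf9* was the only one among them. Leaving out *Ifit1*, *Ifit3* and *Ifit3b* gave a median of 0.36, an alternative that was chosen after seeing the data, as was the count of members above 0. No paired analysis was possible because each genotype has 1 library, and for the same reason no library could be left out. Depth limits *Mx1*, *Gbp4*, *Gbp5*, *Oas2* and *Oas3*: the interval of *Oas2*, for example, runs from 0.791 to 3.33.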
